A study of Mus musculus with 24 samples.

Results

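The genes described here write, remove or read N6-methyladenosine (m6A), a methyl mark on messenger RNA. They are 10 of the 55202 gene names in the expression table, taken by symbol: 5 writers (Mettl3, Mettl14, Wtap, Virma and Rbm15), 2 erasers (Fto and Alkbh5) and 3 readers (Ythdf1, Ythdf2 and Ythdf3). All 10 had counts in every library and entered every test. RNA came from tumours grown from the mouse colon carcinoma line CT26.WT, which came from the Balb/c strain, in male mice labelled wild-type that had been on their diet for 3 to 4 weeks. The groups were Balb/c hosts on 0.172% methionine, Balb/c hosts on 0.86% methionine, NSG hosts on 0.172% methionine and NSG hosts on 0.86% methionine, with 6 libraries each. NSG mice lack T, B and NK cells, whereas Balb/c mice are immunocompetent and share the strain of the graft, so immune status and strain cannot be told apart in a host difference. The labels give no ages and do not state that each library came from its own animal, and where some did not, the p-values below cover technical spread in part.

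The mark is placed in the nucleus. METTL3 is the catalytic subunit and transfers the methyl group from S-adenosylmethionine, which is itself made from methionine. METTL14 holds the RNA substrate, WTAP keeps the pair in nuclear speckles, VIRMA is the scaffold of the regulatory subcomplex, and RBM15 binds RNA and recruits the complex to it. FTO and ALKBH5 are oxygenases that use iron and 2-oxoglutarate to take the methyl group off, FTO also acting on the related cap mark m6Am. The YTHDF proteins bind the mark in the cytoplasm through a YTH domain. YTHDF2 recruits the CCR4-NOT deadenylase and shortens transcript life, YTHDF1 was first linked to translation, and YTHDF3 to both. In tumours the mark has been tied to growth and to how immune cells recognise the tumour.

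Each library held 31339425 to 57162217 assigned counts, of which the 10 genes took from 463 for Mettl3 in its lowest library to 5716 for Alkbh5 in its highest, which keeps the counting error of each value low. Libraries 19 and 23, and libraries 20 and 24, all from Balb/c hosts on 0.86% methionine, were near copies of each other (r = 0.9987 and 0.9981 across 11518 genes, against at most 0.9921 for the other 274 pairs of libraries). Tested against each other over genes with 20 to 100 counts, they gave a chi-square of 1.24 and 1.19 per degree of freedom, where 1 is sampling noise and the other pairs started at 3.17. The mean of each near-copy pair therefore stands for 1 tumour below, so that 22 tumours remain and that group has 4. Across the transcriptome, tumours 17 and 19 with 23 lay farthest from their group means, with root mean square deviations of 0.393 and 0.387 on the log2 scale against 0.135 to 0.313 for the others. Markers of the labelled carcinoma were uneven. Krt18 had 371.9 to 2140 normalised counts per tumour, Krt8 56.47 to 29750, Krt19 0 to 356.8 and Cdh1 13.84 to 132.3, whereas Epcam had at most 77.0 and its median over the NSG tumours on 0.172% methionine was 0, and the summed proliferation markers ran from 50468 to 70993.

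The YTHDF readers are close relatives, and whether their counts can be kept apart depends on their sequences. A stretch of 90 coding bases of each gene is shown because it is where the 3 genes are most alike over that length within 1 exon. It comes from the GENCODE M21 transcripts on GRCm38, read 5′ to 3′ on the coding strand, with capitals at the 23 positions where at least 1 of the 3 genes differs and lower case at the 67 positions they share.
Ythdf1, chr2:180911122-180911211, minus strand: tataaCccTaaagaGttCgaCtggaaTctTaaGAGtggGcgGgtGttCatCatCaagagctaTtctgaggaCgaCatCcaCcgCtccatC
Ythdf2, chr4:132204567-132204656, minus strand: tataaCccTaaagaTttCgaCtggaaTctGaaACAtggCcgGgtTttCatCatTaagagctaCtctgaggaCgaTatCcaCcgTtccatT
Ythdf3, chr3:16204900-16204989, plus strand: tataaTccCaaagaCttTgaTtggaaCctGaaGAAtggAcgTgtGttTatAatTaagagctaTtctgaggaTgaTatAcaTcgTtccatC
Over their whole coding sequences the genes were identical at 70.4% to 71.7% of aligned bases, and the longest run shared by any pair was 22 bases. The labels give the read length as 75 and as 76 bases, longer than any such run, so a read from the coding part of 1 of these genes holds differences from the others. Rbm15 and its paralog Rbm15b were identical at 65.6% of aligned coding bases, with a longest shared run of 14 bases. Elsewhere, Mettl3 overlaps Tox4 on the opposite strand, Virma overlaps the antisense gene Gm11831, and Fto overlaps 8 other annotations, 4 of them on its own strand. The labels differ on whether the kit marked strand, so counts of Mettl3, Virma and Fto carry that uncertainty, and the same-strand overlaps of Fto remain with any kit.

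Compared per length of merged exons, the reader Ythdf1 and the eraser Alkbh5 were the most abundant and the catalytic writer Mettl3 the least. Levels are normalised counts per kb, as mean ± SD over 22 tumours. Ythdf1 averaged 868.2 ± 74.3, Alkbh5 730.0 ± 83.7 and Wtap 578.0 ± 37.8. Ythdf2 followed at 480.1 ± 31.4, Ythdf3 at 462.0 ± 77.8, Virma at 356.6 ± 32.7 and Mettl14 at 349.3 ± 54.4. Rbm15 averaged 290.1 ± 52.2, Fto 221.9 ± 20.5 and Mettl3 125.8 ± 12.3. Of the neighbours in this order, Fto lay above Mettl3 in all 22 tumours, whereas Ythdf2 with Ythdf3 and Virma with Mettl14 changed places freely, the first of each pair being higher in 12 of 22. Mettl3 was last in every group by merged exons. By the longest transcript it was last over all tumours, at 295.8 ± 28.8 per kb, but in Balb/c hosts on 0.172% methionine it averaged 323.5 ± 23.7, against 307.8 ± 27.1 for Rbm15. The order of the others depended on that choice too: with the longest transcript Wtap came first at 1133 ± 74.1 per kb and Fto the fourth at 614.3 ± 56.8.

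**Figure D1:**
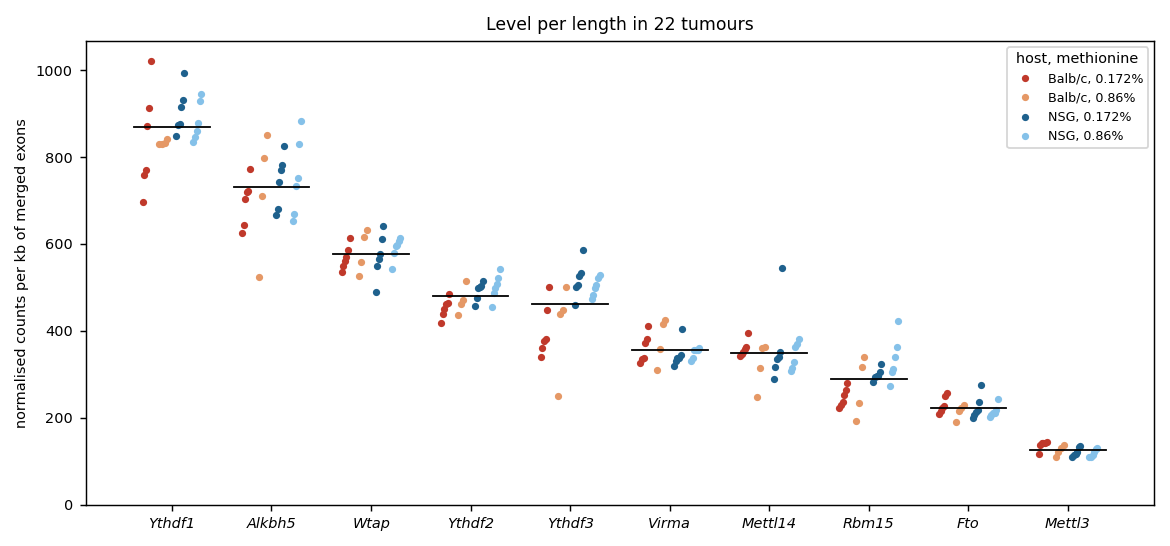
Level of each gene in normalised counts per kb of merged exons (vertical axis, linear from 0), 1 point per tumour coloured by host and dietary methionine, with a line at the mean of 22 tumours. Mettl3, at 109.0 to 144.3, lies below Fto in every tumour, and the highest Mettl14 point, 544.2, is a tumour of an NSG host on 0.172% methionine.

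Among the YTHDF readers, which recognise the same mark, Ythdf1 supplied close to 1 count in 2 per length. Its share of their summed counts per kb of merged exons was 48.0 ± 3.16%, against 26.6 ± 1.62% for Ythdf2 and 25.4 ± 3.2% for Ythdf3 (SD, n = 22). In Balb/c hosts the Ythdf3 share averaged 23.7 ± 3.29% on 0.172% methionine (n = 6) and 23.7 ± 5.17% on 0.86% methionine (n = 4). In NSG hosts it averaged 27.1 ± 1.97% and 26.6 ± 1.21% on the same diets (n = 6 each). The lowest Ythdf3 share, 16.2%, was that of the averaged tumour 19 and 23, and the groups overlapped. The highest Ythdf1 share, 57.4%, was that of tumour 15.

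**Figure D2:**
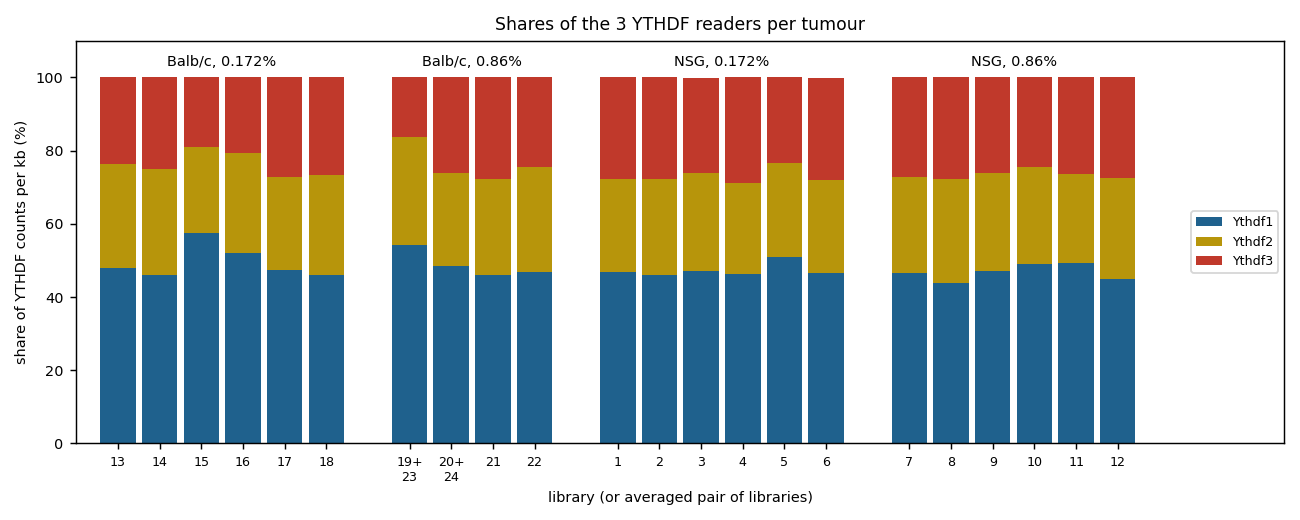
Share of Ythdf1, Ythdf2 and Ythdf3 in their summed counts per kb (vertical axis, percent), 1 bar per tumour, labelled by library and grouped by host and dietary methionine. The Ythdf3 segment is smallest, at 16.2%, in the averaged tumour 19+23 of a Balb/c host on 0.86% methionine.

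The first question of the design is what methionine restriction did to these transcripts. No writer, eraser or reader was called for diet in either host. In NSG hosts 0 of 10 passed (limma, Benjamini-Hochberg adjusted p under 0.05 over 38019 genes), where 0.00526% of all genes did. In Balb/c hosts 0 of 10 passed, where 0.00263% of all genes did. None of the 10 had an unadjusted limma p under 0.05 for diet in either host, where 2554 of 38019 genes in NSG and 2843 in Balb/c hosts did. For none did the diet groups lie apart without overlap, which held for 0.65% of all genes in NSG and 0.805% in Balb/c hosts. At such shares 0 of 10 says little about these genes. The median difference over the 10 genes, 0.172% minus 0.86% methionine, was 0.01 in NSG and -0.02 in Balb/c hosts on the log2 scale, against 0.00 over all genes in both. A background of 2 and 1 called genes leaves little to read the members' counts against, so the intervals say more. Over the 10 genes the 95% intervals reached at most from 0.765-fold to 1.23-fold in NSG hosts and from 0.78-fold to 1.36-fold in Balb/c hosts.

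The catalytic writer Mettl3 had 557.3 to 687.3 normalised counts (median 607.9) in NSG hosts on 0.172% methionine, against 553.5 to 662.3 (median 594.8) on 0.86%. In Balb/c hosts it had 596.3 to 732.4 (median 718.6) on 0.172%, against 553.8, 665.5, 700.5 and 610.5 in the 4 tumours on 0.86%. There 5 of 6 restricted tumours lay above every tumour on 0.86% methionine, tumour 17 only just, at 701.0 against 700.5 in tumour 21. Tumour 18 lay low, so the groups overlapped. The log2 difference was 0.03 ± 0.08 (SE) in NSG hosts and 0.14 ± 0.09 in Balb/c hosts (limma adjusted p = 0.996 and 0.813).

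Its partner Mettl14 had 2143 to 4037 normalised counts (median 2506) in NSG hosts on 0.172% methionine, against 2286 to 2827 (median 2568) on 0.86%. The value of 4037 belonged to tumour 2, and the 5 other restricted tumours reached at most 2606. In Balb/c hosts Mettl14 had 2534 to 2937 (median 2634) on 0.172%, against 1846, 2669, 2331 and 2690 on 0.86%, again with overlap. The differences were 0.05 ± 0.12 and 0.17 ± 0.13 (limma adjusted p = 0.988 and 0.835), and the upper interval bound of 0.44 in Balb/c hosts was the highest of the 10 genes. Without the averaged tumour 19 and 23, or any other tumour, the Balb/c difference stayed between 0.06 and 0.24.

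Among the regulatory writer subunits, Rbm15 had the lowest diet estimates, -0.15 ± 0.11 in NSG hosts and -0.10 ± 0.13 in Balb/c hosts (limma adjusted p = 0.795 and 0.922). In NSG hosts it had 2089 to 2412 normalised counts (median 2197) on 0.172%, against 2028 to 3139 (median 2417) on 0.86%, and the restricted range lay inside the other. Wtap differed by -0.05 ± 0.07 and -0.03 ± 0.08 and Virma by -0.02 ± 0.08 and -0.06 ± 0.09 in NSG and Balb/c hosts.

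The erasers were as close between diets. Fto had 2590 to 3601 normalised counts (median 2817) in NSG hosts on 0.172%, against 2619 to 3170 (median 2751) on 0.86%. Among Balb/c hosts it had 2711 to 3352 (median 2936) on 0.172%, against 2482, 2823, 2888 and 2978 on 0.86%. Its differences were 0.06 ± 0.08 and 0.10 ± 0.09. Alkbh5 differed by -0.01 ± 0.10 in NSG and -0.03 ± 0.11 in Balb/c hosts, with 3144 counts in the averaged tumour 20 and 24 as its lowest value and 5292 in tumour 12 as its highest.

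Ythdf2, the reader that leads transcripts to decay, had the narrowest diet intervals of the 10 genes, and its fellow reader Ythdf3 some of the widest. Ythdf2 had 2096 to 2357 normalised counts (median 2286) in NSG hosts on 0.172%, against 2083 to 2475 (median 2302) on 0.86%. In Balb/c hosts it had 1910 to 2212 (median 2084) on 0.172%, against 2108, 2001, 2150 and 2349 on 0.86%. Its differences were -0.03 ± 0.07 and -0.05 ± 0.07, with intervals of -0.16 to 0.11 and -0.21 to 0.10. Ythdf1 differed by 0.04 ± 0.08 and 0.00 ± 0.09. Its 4 tumours in Balb/c hosts on 0.86% methionine read 2788, 2753, 2753 and 2761, inside the 2309 to 3389 of the 6 restricted ones. Ythdf3 differed by 0.04 ± 0.12 in NSG and 0.01 ± 0.14 in Balb/c hosts. The Balb/c value rested on the averaged tumour 19 and 23: without it the difference was -0.21 ± 0.10 (limma adjusted p = 0.6).

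**Figure D3:**
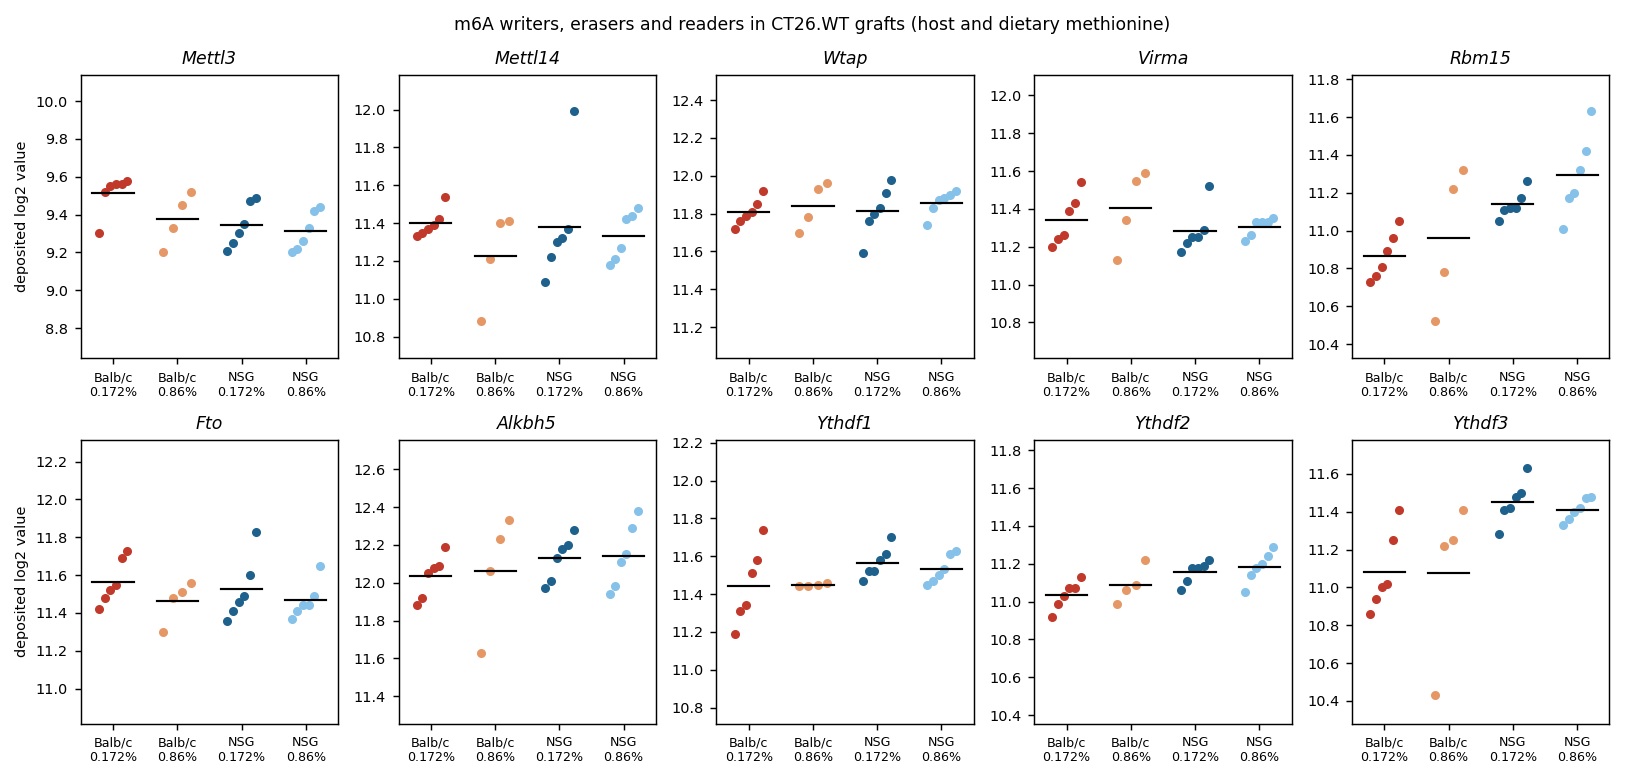
Deposited log2 value (vertical axis, the same span in every panel) of the 10 genes in each tumour, by host and dietary methionine (horizontal axis), with a line at the group mean. For Rbm15 the 6 Balb/c tumours on 0.172% methionine lie below the 6 NSG tumours on that diet, and the single high Mettl14 point, 11.99, is tumour 2.

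The title of the series sets the 2 hosts against each other, which the design tests as the difference of the diet effects, Balb/c minus NSG. None of the 10 genes passed, and none of all genes did (0%). By unadjusted p under 0.05, 2447 of all genes and 0 of the 10 would count. Estimates ran from -0.04 for Ythdf1, Ythdf3 and Virma to 0.12 ± 0.17 for Mettl14, and the intervals reached at most from 0.751-fold to 1.4-fold.

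Between hosts, Ythdf3 and Rbm15 had the lowest estimates on both diets, and neither passed on 1 diet alone. On 0.172% methionine 0 of 10 genes were called, where 2.09% of all genes were. On 0.86% methionine 0 of 10 were called, where 2.53% of all genes were. The median difference of the 10, Balb/c minus NSG, was -0.05 on 0.172% and -0.08 on 0.86% methionine, against 0.00 over all genes on both. All genes include many with low values. Over the 19946 genes with values of at least 5 in at least 6 tumours, medians were -0.01 and -0.02, and 968 and 1092 were called. Over genes of mean value at least 8, outside a member's own chromosome, medians were -0.03 to -0.02 on 0.172% and -0.04 to -0.03 on 0.86%. Host and diet comparisons share tumours, and so are not independent of each other.

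Rbm15, the RNA-binding recruiter of the writer complex, had 1659 to 2080 normalised counts (median 1813) in Balb/c hosts on 0.172% methionine, against 2089 to 2412 (median 2197) in NSG hosts. These 2 groups did not overlap, which held for 1.77% of all genes. On 0.86% methionine the 4 Balb/c tumours had 1434, 1729, 2528 and 2345, against 2028 to 3139 (median 2417) in NSG hosts, with 2 of 4 below every NSG tumour. On that diet the groups overlapped for all 10 genes, where 4.26% of all genes had groups without overlap. The differences were -0.28 ± 0.11 on 0.172% and -0.33 ± 0.13 on 0.86% methionine (limma unadjusted p = 0.0238 and 0.0161, adjusted p = 0.267 and 0.229). A fit on the groups of each comparison alone called it on 0.172% methionine (limma adjusted p = 0.0464, with 1.25% of all genes called), and keeping all 24 libraries apart called it on 0.86% methionine (-0.43 ± 0.12, adjusted p = 0.0325, with 4.8% of all genes called). That second fit counts each near-copy pair as separate tumours, and these pairs held the lowest Rbm15 values of their group. Without the averaged tumour 19 and 23 the difference on 0.86% methionine was -0.18 (adjusted p = 0.718).

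Ythdf3 had 1826 to 2688 normalised counts (median 2028) in Balb/c hosts on 0.172% methionine, against 2461 to 3138 (median 2768) in NSG hosts. On 0.86% methionine the Balb/c tumours had 1346, 2404, 2684 and 2349, against 2536 to 2831 (median 2690) in NSG hosts. On the restricted diet 5 of 6 Balb/c tumours lay below every NSG tumour, tumour 17 being the exception, and on the other diet 3 of 4 did, tumour 21 being the exception. The differences were -0.37 ± 0.12 and -0.33 ± 0.14 (limma unadjusted p = 0.00488 and 0.0205, adjusted p = 0.12 and 0.258). Without the averaged tumour 19 and 23 the difference on 0.86% methionine was -0.12. That tumour has no part in the 0.172% comparison, where the difference stayed at -0.37. The SE there fell from 0.12 to 0.08, because the spread is estimated over all 4 groups, and Ythdf3 was then called (limma adjusted p = 0.011). The share of all genes called in that fit is not reported here.

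Taking the mean of the host differences on both diets, an addition made after the values were seen, 2 of 10 genes were called and both fell. Of all genes 5.51% were called and 1.79% were called lower, but these include many with low values. The share among genes with values of at least 5 in at least 6 tumours is not reported here for this mean. Ythdf3 fell by 0.35 ± 0.09 on the log2 scale, to 0.782-fold with an interval of 0.687 to 0.89 (limma adjusted p = 0.0179). Rbm15 fell by 0.30 ± 0.09, to 0.811-fold with an interval of 0.718 to 0.916 (adjusted p = 0.0359). The fall of Ythdf3 passed when any of the 22 tumours was left out, and was then smallest, at -0.25, without the averaged tumour 19 and 23. That of Rbm15 lost its call when 1, 3, 4, 6, 7, 11, 12, 13, 14, the averaged tumour 19 and 23 or the averaged tumour 20 and 24 was left out, with differences of -0.30 to -0.23 and adjusted p up to 0.101.

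The other 8 genes did not pass in any host comparison. Mettl3 had the highest estimate, 0.17 ± 0.08 on 0.172% methionine, with 5 of 6 Balb/c tumours above every NSG tumour, and 0.06 ± 0.09 on 0.86% (limma adjusted p = 0.369 and 0.845). Ythdf2 differed by -0.12 ± 0.07 and -0.09 ± 0.07, and Ythdf1 by -0.12 ± 0.08 and -0.08 ± 0.09, on the same diets. The erasers lay near 0, Fto at 0.04 ± 0.08 and -0.01 ± 0.09 and Alkbh5 at -0.09 ± 0.10 and -0.08 ± 0.11. Of the other writers, Mettl14 differed by 0.02 ± 0.12 and -0.11 ± 0.13, Virma by 0.06 ± 0.08 and 0.10 ± 0.09, and Wtap by 0.00 ± 0.07 and -0.02 ± 0.08.

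**Figure D4:**
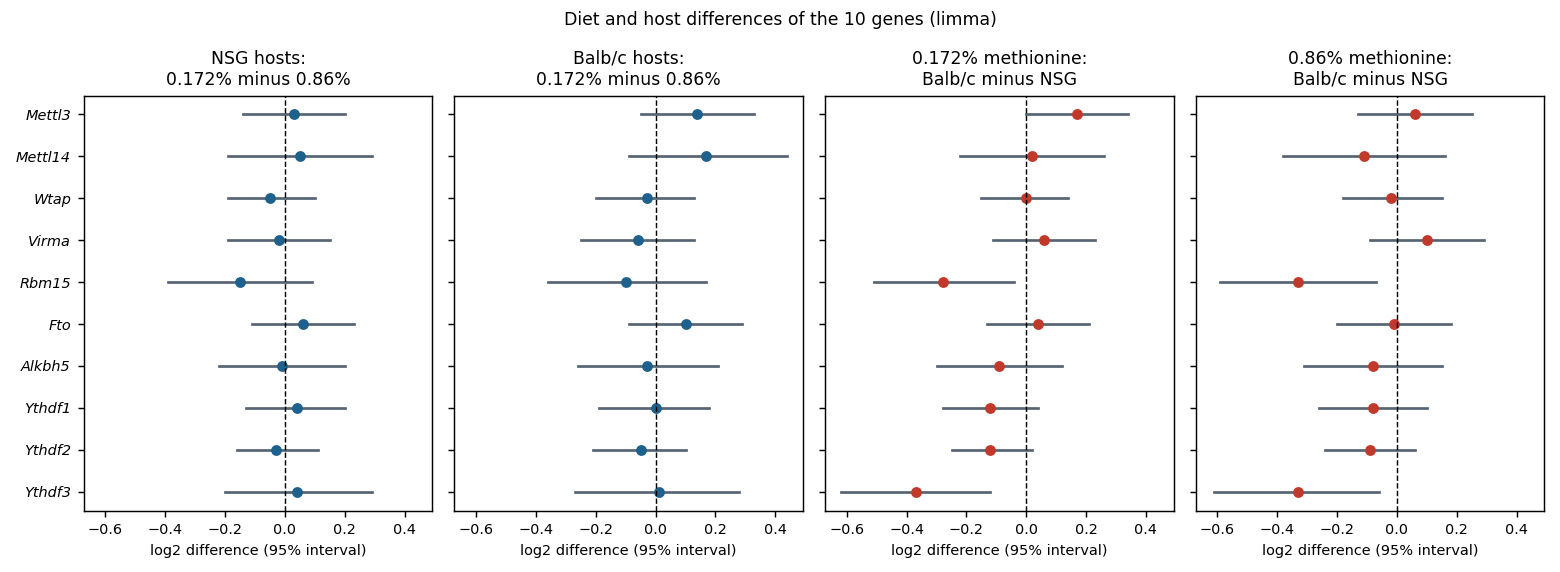
Log2 difference (horizontal axis) with its 95% interval for each gene, by diet within NSG and Balb/c hosts (the left 2 panels, 0.172% minus 0.86% methionine) and by host on each diet (the right 2 panels, Balb/c minus NSG). For diet every interval includes 0, whereas for host those of Rbm15 and Ythdf3 lie below 0 on both diets, without passing the adjusted threshold.

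These are bulk tumours, in which fewer cells of a type and less RNA per cell cannot be told apart, and markers of some host cell types moved with the host comparison. All 8 T cell markers were called higher in Balb/c hosts on 0.172% methionine and 7 of 8 on 0.86%, where 1.44% and 2.05% of all genes were called higher. Their summed normalised count was 37.9 to 949.5 and 144.9 to 506.6 in Balb/c hosts on 0.172% and 0.86% methionine, against 2.77 to 13.7 and 4.63 to 14.3 in NSG hosts, where Cd3e and Cd3d were at 0 in every tumour on 0.86%. All 6 NK and cytotoxic markers were called higher on both diets, with sums of 109.5 to 10257 and 1474 to 5464 against 9.23 to 49.7 and 7.41 to 26.5. Endothelial markers were called higher in 3 of 5 and 4 of 5 on these diets, with sums of 2708 to 5782 and 4882 to 8936 against 1826 to 3067 and 1801 to 3151. Macrophage markers (sums of 38610 to 102629 and 75404 to 116573 against 30263 to 77107 and 37354 to 75533) and proliferation markers (54079 to 64010 and 54256 to 67288 against 50504 to 70993 and 50468 to 68857) had 0 calls on either diet. The 6 fibroblast and 4 B cell markers had 0 calls on either diet and in the mean of both. B cell sums overlapped, at 26.3 to 373.9 and 60.6 to 220.1 against 69.7 to 175.7 and 42 to 196.4. Of 4 dendritic cell markers 1 was called higher on each diet, as was 1 of 5 epithelial and carcinoma markers on 0.172%. On 0.86% methionine 1 of 3 neutrophil and 1 of 4 adipose markers were called higher. In the mean of both host differences, where Rbm15 and Ythdf3 were called and 3.72% of all genes were called higher, 4 of 7 macrophage markers were called higher (median 0.63, 7 of 7 estimates positive). So were 2 of 3 neutrophil markers (median 1.57), all 8 T cell markers, all 6 NK and cytotoxic markers and 4 of 5 endothelial markers. Also called higher were 1 of 5 epithelial and carcinoma, 1 of 4 adipose and 1 of 4 dendritic cell markers. Of 6 proliferation markers 1, Ccnb1, was called lower (-0.23 ± 0.06). The part of these cells in the values of Rbm15 and Ythdf3 was not tested. For diet no marker was called in either host. Yet all 7 macrophage markers had lower estimates on 0.172% methionine in both hosts (medians -0.18 in NSG and -0.52 in Balb/c). So had all 5 endothelial (-0.20 and -0.49), all 4 adipose (-0.58 and -0.83) and all 4 red blood cell markers (-0.45 and -0.62). No other marker list was lower throughout in both hosts. The part of these cells in the diet values was not tested either.

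The genes around the machinery were counted in 6 lists, and for diet none of them was called in either host or in the difference between hosts. The list of S-adenosylmethionine synthesis and S-adenosylhomocysteine removal is the one nearest the diet. Mat2a, which makes S-adenosylmethionine and whose messenger RNA is itself an m6A substrate of METTL16, had 8210 to 11110 normalised counts (median 9572) in NSG hosts on 0.172%, against 8712 to 12070 (median 10020) on 0.86%. Tumours of Balb/c hosts had 7830 to 15060 (median 9133) on 0.172%, against 6966 to 12400 (median 7248) on 0.86%. Its differences were -0.08 ± 0.15 and 0.22 ± 0.16 (limma adjusted p = 0.943 and 0.835). The Balb/c value was 0.09 without tumour 17, 0.14 without the averaged tumour 19 and 23, and 0.42 without the averaged tumour 20 and 24. The median of the 5 genes of this list was 0.00 in NSG and 0.11 in Balb/c hosts, against 0.00 over all genes.

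For host, 3 of the 13 other m6A readers were called lower in Balb/c tumours on 0.172% methionine and 0 of 13 on 0.86%, and no gene of the 5 other lists was called. Where 0.652% of all genes were called lower on 0.172% methionine, these 3 were Igf2bp1, Fmr1 and Fxr1. Among the 19946 genes with values of at least 5 in at least 6 tumours, 343 were called lower there. Igf2bp1, a cytoplasmic RNA-binding protein that stabilises methylated transcripts, had 121.0 to 343.5 normalised counts (median 168.5) in Balb/c hosts, against 393.7 to 660.9 (median 592.3) in NSG hosts, with no overlap. Its difference was -1.50 ± 0.18 (limma adjusted p = 1.16e-05), against -0.39 ± 0.20 on 0.86% methionine (adjusted p = 0.431). Its diet estimates had opposite signs, -0.62 ± 0.20 in Balb/c and 0.49 ± 0.18 in NSG hosts, and the test of that difference gave -1.11 ± 0.26 with an unadjusted p of 0.000282 and an adjusted p of 0.334, so it did not pass.

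Fmr1, the fragile X RNA-binding protein, had 2018 to 2856 normalised counts (median 2376) in Balb/c hosts on 0.172% methionine, against 3071 to 3433 (median 3247) in NSG hosts, also without overlap. The difference was -0.44 ± 0.11 (limma adjusted p = 0.0397), and on 0.86% methionine -0.39 ± 0.13 (adjusted p = 0.128). The value on 0.86% was -0.18 without the averaged tumour 19 and 23, and -0.49 and called without the averaged tumour 20 and 24 (adjusted p = 0.0397). Its relative Fxr1 had 3026 to 3814 normalised counts (median 3381) against 3639 to 4994 (median 4468), with overlap. It fell by 0.37 ± 0.09 on 0.172% (adjusted p = 0.0323) and differed by -0.03 ± 0.10 on 0.86%. Leaving out 1 tumour at a time ended the call of Fmr1 in 10 of 22 cases (tumours 1, 3, 4, 5, 6, 11, 13, 14, 15 and 16, adjusted p up to 0.111) and that of Fxr1 in 7 of 22 (tumours 2, 3, 4, 6, 14, 15 and 18, adjusted p up to 0.0933). Fmr1 also lost its call under quantile normalisation, with 24 libraries kept apart and with the first library of each near-copy pair, and Fxr1 in the fit on these groups alone. Of the 13 readers 11 had negative host estimates on each diet, with medians of -0.09 on 0.172% and -0.13 on 0.86%, against 0.00 over all genes. Over genes of mean value at least 8, outside a member's own chromosome, medians were -0.03 to -0.02 and -0.04 to -0.03 on these diets.

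The smallest adjusted p of each remaining list came from a host comparison too. Among the other writer subunits, Cbll1, the HAKAI ubiquitin ligase, differed by -0.28 ± 0.11 on 0.86% methionine (limma adjusted p = 0.222). Mettl16, a methyltransferase of its own, differed by -0.22 ± 0.08 on 0.172% (adjusted p = 0.224), and Mettl5, which methylates ribosomal RNA, by -0.26 ± 0.13 on 0.86% (0.398). The DNA repair dioxygenase Alkbh2 differed by 0.36 ± 0.12 on 0.86% (0.134), and Cnot7, a deadenylase subunit to which YTHDF2 leads its targets, by -0.22 ± 0.08 on 0.172% (0.173). Ahcyl1 differed by -0.24 ± 0.08 and Ahcy, which hydrolyses S-adenosylhomocysteine, by -0.29 ± 0.10 on 0.172% (0.144 and 0.158). Mettl16 also had the smallest unadjusted p of these genes for diet in NSG hosts, 0.000897 for a difference of 0.32 ± 0.08 (adjusted p = 0.358). In the mean of both host differences, the addition described above, 1.79% of all genes were called lower and 3.72% higher. There Igf2bp1 and Fmr1, 2 of the 13 other readers, were called lower and kept their calls without any 1 tumour. Cnot6, 1 of 11 deadenylase genes, and Ahcyl1, 1 of 5 in its list, were called lower (limma adjusted p = 0.0494 and 0.0393). Alkbh2, 1 of 7 other AlkB family genes, was called higher (adjusted p = 0.0385). Single calls in lists this small say little about the lists.

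Apart from the groups, the genes differed in how steady they were. Within groups Ythdf2 had an SD of 0.0773 on the log2 scale, below all but 1.08% of genes whose mean value reached 8, and Wtap 0.0998, below all but 5.22%. The median of those genes was 0.184. Ythdf3 (0.221), Mettl14 (0.21) and Rbm15 (0.205) lay above it, and Alkbh5 (0.176), Fto (0.129), Virma (0.129), Ythdf1 (0.121) and Mettl3 (0.115) below.

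Pairs of writers, of erasers and of readers did not go together across tumours in a way that passed with group means removed. Correlations of 6 pairs were computed over 22 tumours after removing group means. For the catalytic pair Mettl3 and Mettl14 Pearson's r was -0.0342 (permutation p = 0.884, adjusted 0.884) and Spearman's rho 0.0299 (permutation p = 0.896, adjusted 0.896), with r = -0.247 without the 2 tumours farthest from the median of Mettl3. Wtap and Virma had the highest r, 0.367 (permutation p = 0.0907, adjusted 0.544), with rho 0.287 (permutation p = 0.195, adjusted 0.408) and r = 0.445 without the 2 farthest tumours. The erasers Fto and Alkbh5 had r = 0.179 and rho = 0.229 (permutation p = 0.424 and 0.305, adjusted 0.636 and 0.458), and r = 0.146 without the 2 farthest tumours. Ythdf2 and Ythdf3 had r = 0.215 and rho = 0.292 (permutation p = 0.343 and 0.188, adjusted 0.636 and 0.408), and r = 0.151 without the 2 farthest tumours. Ythdf1 had r = -0.0713 with Ythdf2 and -0.2 with Ythdf3, with adjusted permutation p of 0.884 and 0.636. With the group means left in, r of Ythdf2 and Ythdf3 was 0.514 (permutation p = 0.0132, adjusted 0.0795) and rho 0.582 (0.00531, adjusted 0.0319), so that relation passed only by rank and with group means left in.

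Which genes varied most like a member was looked up among 11509 genes whose mean value reached 8, over 22 tumours with group means removed, as a description. Ythdf3 was closest to Ube3a and Dpp8 (r = 0.915 and 0.909), Rbm15 to Syne3 and Dock5 (0.88 and 0.877), Virma to Atm and Snrnp200 (0.884 and 0.873), and Alkbh5 to Gm6532 and Ppme1 (0.869 and 0.868). For Mettl3 they were Zfp180 and Noc3l (0.808 and 0.766), and for Ythdf2 Zc3h10 and Yipf4 (0.803 and 0.766), and Fto was closest to Tbc1d5 (0.813). For 3 members the nearest gene lay on the member's own chromosome: Abcd3 for Mettl14 on chromosome 3 (0.89), Gid8 and Rae1 for Ythdf1 on chromosome 2 (0.842 and 0.787), and Zfp960 and Zfp97 for Wtap on chromosome 17 (0.839 and 0.832). All of these values share libraries and depth.

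Position was then examined for all 10 genes, after the values were seen, among 11377 genes with a GENCODE M21 position on GRCm38. Of the 50 genes most like Mettl14, 38 lay on chromosome 3, which holds 4.85% of the genes compared. Of the 50 most like Ythdf1, 31 lay on chromosome 2 (8.17%), and of those most like Wtap 11 on chromosome 17 (5.03%). The other 7 members had 0 to 7 of 50 on their own chromosome, with Fto at 7 (5.33% of genes). The deviation of Mettl14 from its group mean correlated with the mean deviation of the 67 genes within 10 Mb at r = 0.835. Tumour 2 lay farthest out, at 0.61 for Mettl14 and 0.65 for these genes, and r without that tumour was not computed. For Wtap and its 96 neighbours r was 0.821, for Ythdf1 and its 88 neighbours 0.584, and for Ythdf3 and its 32 neighbours -0.0508.

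Only Mettl14 and Ythdf1, with most of their 50 most alike genes on their own chromosome, were profiled along it. Each was profiled in the 2 tumours where it deviated most from its group mean. That choice favours tumours in which the neighbours deviate too, so the counts below are a description. Wtap was not profiled. The high Mettl14 value of tumour 2 was shared by the genes around it. Mettl14 (chromosome 3, 123368297 to 123386108, minus strand, GRCm38) was 0.73 higher there, on the log2 scale, than in the 5 other NSG tumours on 0.172% methionine. Within 10 Mb, 55 of 67 genes (82.1%) were highest of the 6 tumours in tumour 2, with a median difference of 0.75. On the rest of chromosome 3 this held for 187 of 485 genes (38.6%, median 0.09) and on other chromosomes for 2973 of 10825 (27.5%, median 0.01). By distance, medians were 0.73 and 0.82 in the 10 Mb before and after Mettl14, 0.56 and 0.61 in the next 20 Mb towards the chromosome end and -0.06 over the last 12 genes, and 0.29 and 0.11 in the 20 Mb before the first of these windows. The lowest Mettl14 value, in the averaged tumour 19 and 23 of the Balb/c hosts on 0.86% methionine, was not shared in this way. Its difference from the other 3 tumours was -0.46, while 29 of 67 genes within 10 Mb (43.3%, median -0.11) were the lowest of the group, against 44.5% on the rest of chromosome 3 and 39% on other chromosomes. Rbm15 lies on chromosome 3 as well (107325421 to 107333673) and was not raised in tumour 2, with 2183 normalised counts against 2089 to 2412 in the other 5.

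Ythdf1 (chromosome 2, 180904377 to 180920949, minus strand) moved with its surroundings in 2 Balb/c tumours on 0.172% methionine. In tumour 14 it lay 0.30 below the 5 others of its group. There 53 of 88 genes within 10 Mb (60.2%, median -0.25) and 481 of 842 on the rest of chromosome 2 (57.1%, median -0.24) were the lowest of the 6 tumours, against 14.2% on other chromosomes (median -0.01). In tumour 15 it lay 0.35 above the others. There 50 of 88 genes within 10 Mb (56.8%, median 0.28) were the highest, against 20.3% on the rest of the chromosome (median 0.04) and 19.2% elsewhere (median -0.01). What set these regions apart was not tested.

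**Figure D5:**
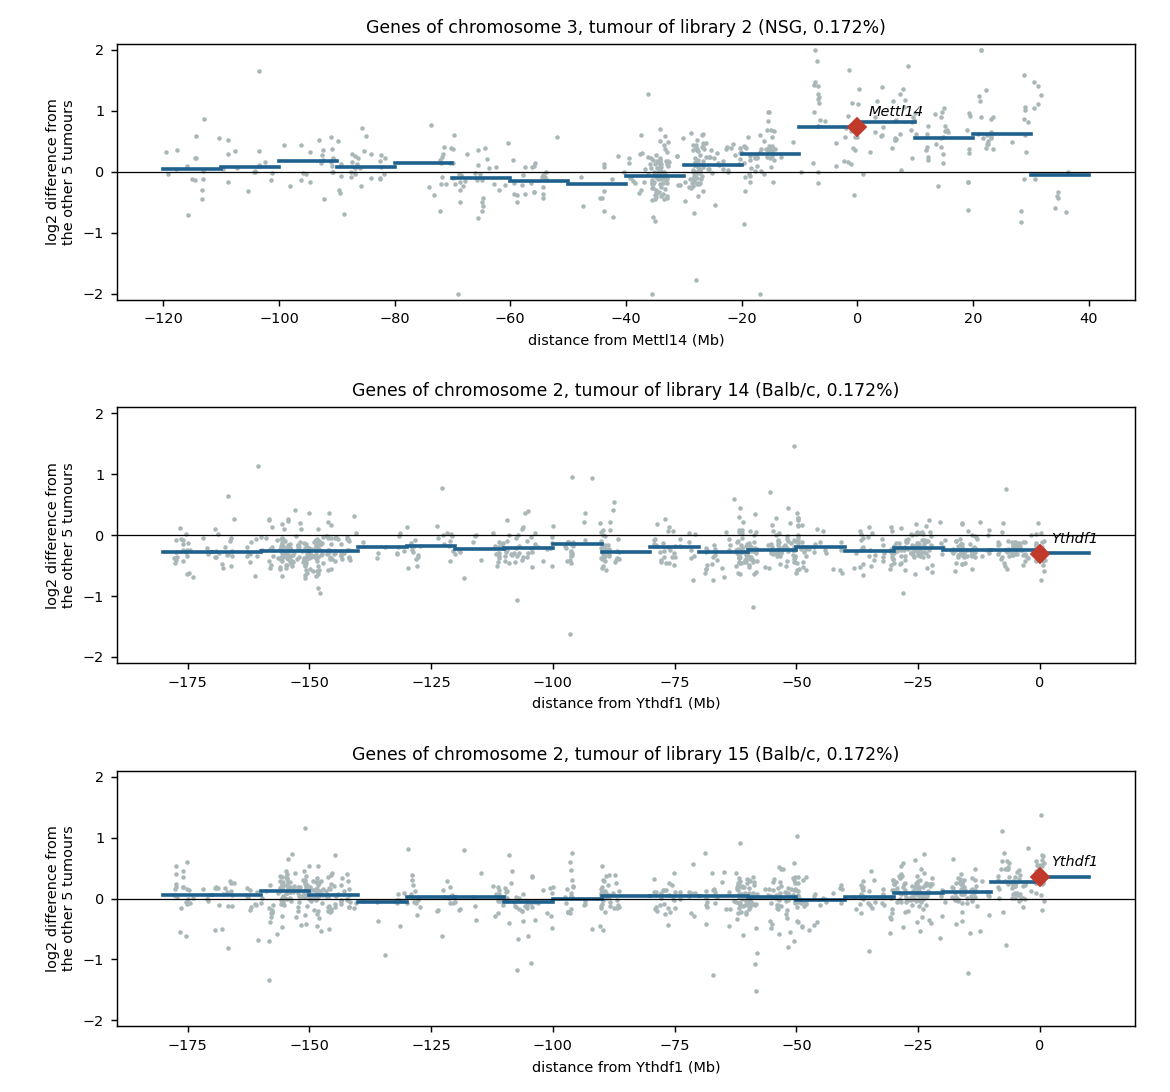
Log2 difference of each tumour from the 5 other tumours of its group (vertical axis, values beyond 2 or -2 drawn at those limits) by distance in Mb from Mettl14 or Ythdf1 (horizontal axis), with 1 point per gene, blue lines at the medians of 10 Mb bins and a red diamond for the named gene. In tumour 2 the genes around Mettl14 are raised by a median of 0.73 and 0.82 in the bins beside it, tumour 14 is lower along all of chromosome 2, and tumour 15 is higher near Ythdf1.

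The host values of Rbm15 and Ythdf3 were set against their surroundings in the same way. The 95 genes within 10 Mb of Rbm15 had median host differences of -0.11 on 0.172% and -0.11 on 0.86% methionine, and the 32 genes around Ythdf3 (chromosome 3, 16183212 to 16217037, plus strand) had -0.13 and -0.07. The rest of chromosome 3 had medians of -0.09 and -0.05 outside the window of Rbm15, and -0.09 and -0.06 outside that of Ythdf3. On other chromosomes the medians were -0.02 and -0.03. In the averaged tumour 19 and 23 Ythdf3 had the lowest value of all tumours, 1346, while the mean of its neighbours deviated from their group mean by 0.02.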

How the data were processed

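RNA of 24 tumour libraries was sequenced, and 1 table of log2 values per gene name was deposited. Per the submitters' processing notes, STAR, featureCounts, DESeq2 and the genome build mm10 were used, without versions in the sources used here. The deposited log2 values behave as a variance-stabilised scale: they have a floor of 4.0711, and inverting that scale gave whole counts, within 0.01, for 100% of 640012 values above the floor. The labels differ on the kit, poly(A)-enriched or ribosomal RNA-depleted, and on strand. Of 55228 lines, 26 whose gene names had become dates were left out, and 38019 of the other 55202 names had a count.

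Near-copy libraries were averaged, and the 5 comparisons were tested together with limma 3.58.1 (R 4.3.3) on the log2 values of 22 tumours in 4 groups, two-sided, with trend and robust options and Benjamini-Hochberg adjustment over 38019 genes. Calls are at an adjusted p under 0.05. Normalised counts are counts divided by the authors' size factors, levels per length use GENCODE mouse release M21, and intervals are 95%. The permutation tests used 100000 resamples (scipy 1.17.1). The scripts were tested on simulated data. The 10 genes, the lists and the markers were chosen with earlier results of these data known. All 10 genes are named. Of each list up to 3 genes with the smallest adjusted p, every called gene, and always Mat2a and Igf2bp1, are named, and for each of the 10 genes the 2 most alike, of which some are not reported here. The mean of effects over diets or hosts and the position comparison were added after the values were seen. Alternatives changed the filter, scale, centring, model, treatment of near copies and the tumours kept.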

Additional observations from a re-analysis of the deposited data

Results flagged for a closer look

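Of 40 sets of values, each gene in each group, 3 held a tumour farther from the rest than Dixon's 95% limit (0.625 for 6 tumours), where chance gives about 1 in 20. Mettl14 read 11.99 on the log2 scale in tumour 2 of the NSG hosts on 0.172% methionine, with the nearest tumour at 11.37, and the genes around it were raised there too. Virma read 11.52 in tumour 1 of the same group, with the nearest at 11.29. Mettl3 read 9.30 in tumour 18 of the Balb/c hosts on 0.172% methionine, below the nearest at 9.52.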

How the results depend on the processing

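Over the 10 genes and 5 comparisons, and apart from leaving out tumours, the alternatives in filter, scale, centring, model and treatment of near copies gave 540 differences with the same call and direction, 2 that gained a call and 8 that changed sign without a call. Keeping 24 libraries apart called 1 of 10 genes for host on 0.86% methionine (Rbm15), and the fit on the groups of each comparison alone called 1 of 10 on 0.172% (Rbm15). Leaving out tumours gave 0 to 1 called genes for host on 0.172% methionine, and 1 to 2 for the mean host difference. On 0.172% methionine the 1 was Ythdf3 without the averaged tumour 19 and 23, which is on the other diet and entered only through the shared estimate of spread. For the mean host difference Ythdf3 was the 1 left in the 11 of 22 fits where Rbm15 lost its call. The cause of the other changes was not tested.

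The sign changes were all of differences near 0 that passed in neither fit. With 24 libraries kept apart the diet difference in Balb/c hosts was 0.01 for Rbm15, 0.04 for Alkbh5 and 0.03 for Fmr1, the difference between hosts 0.06 for Alkbh5 and 0.04 for Ythdf3, and the mean diet difference 0.02 for Alkbh5. Quantile normalisation gave -0.02 for Ythdf3 by diet in Balb/c hosts, 0.03 for Fto by host on 0.86% methionine and 0.01 for Wtap in the mean host difference. Median centring gave -0.02 for Mettl14 by host on 0.172% methionine and -0.02 for Fto in the mean host difference, and taking the first library of each near-copy pair gave 0.01 for Fto by host on 0.86% methionine.

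Leaving out 1 tumour at a time changed the sign of the following differences. Those of 0.00 with all tumours have no sign and are not listed. By diet in NSG hosts they were -0.07 to 0.11 for Mettl14 and -0.05 to 0.03 for Alkbh5. By diet in Balb/c hosts they were -0.08 to 0.01 for Wtap, -0.24 to 0.03 for Rbm15, -0.17 to 0.06 for Alkbh5, -0.21 to 0.12 for Ythdf3 and -0.23 to 0.08 for Fmr1. For the difference of diet effects they were -0.04 to 0.05 for Wtap, -0.13 to 0.02 for Virma, -0.09 to 0.18 for Rbm15, -0.01 to 0.11 for Fto, -0.16 to 0.07 for Alkbh5, -0.10 to 0.01 for Ythdf1, -0.06 to 0.02 for Ythdf2, -0.26 to 0.07 for Ythdf3 and -0.26 to 0.05 for Fmr1. By host on 0.86% methionine they were -0.17 to 0.01 for Mettl14, -0.06 to 0.03 for Wtap, -0.04 to 0.05 for Fto, -0.17 to 0.07 for Alkbh5 and -0.12 to 0.02 for Fxr1, and on 0.172% methionine -0.04 to 0.14 for Mettl14. The mean host difference ran from -0.08 to 0.01 for Mettl14 and -0.03 to 0.01 for Wtap, and the mean diet difference from -0.09 to 0.02 for Alkbh5, -0.01 to 0.04 for Ythdf1 and -0.08 to 0.08 for Ythdf3.

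Over all genes, keeping 24 libraries apart called 112 genes for diet in Balb/c hosts against 1, and 1824 for host on 0.86% methionine against 963. The fit on the groups alone called 10 and 4 genes for diet in NSG and Balb/c hosts against 2 and 1, and 476 for host on 0.172% methionine against 796. Under median centring the host calls on 0.172% methionine split into 462 higher and 371 lower, against 548 and 248. No paired analysis was possible because library numbers are not shared between groups. Counts did not limit these genes, each with at least 463 per library, whereas the number of tumours limits their intervals.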
